A study of Mus musculus with 8 samples.

Results

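The comparison of embryonic day 15 (E15) with embryonic day 13 (E13) rests on the bulk RNA sequencing libraries whose titles name these ages, 2 at each, so 4 of the 8 libraries of the series. The cells were mouse brain cells positive for tdTomato, a red fluorescent reporter, and the labels call them progenitor cells and their treatment wt. Which promoter or Cre drives the reporter, how many embryos were pooled and whether the replicates came from separate litters are not given in the sources used here, so p-values measure only the spread between these libraries, which may be technical. The other 4 libraries are of postnatal day 12 (P12), 2 after normoxia and 2 after hypoxia at 10% oxygen, and they did not enter the fit. Every gene row of the 4 embryonic libraries was considered, 53507 in all, and 18253 genes passed the filter on low counts and were tested.

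Cortical neurogenesis runs from radial glia, which divide at the ventricle, through intermediate progenitors, which divide mostly to give neurons, to newborn neurons that migrate into the cortical plate. Neurons of the deep layers are born first and those of the upper layers later, and radial glia turn to making glia after neurogenesis. Cell division, Notch signalling between neighbouring cells, and transcription factors that mark birth order are the programmes by which these ages are usually compared.

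Counts in gene rows were 40610695 to 47084796 per library. Levels are given as CPM, counts per mega-count of the library total after TMM scaling, always in the order E13 replicates 1 and 2, then E15 replicates 1 and 2. The Pearson correlation of log CPM across genes was 0.94 between the replicates of each age and 0.89 to 0.92 between ages. The labelled cell type was checked against its defining markers per kilobase of exon, a scale on which genes can be compared. Radial glia genes differed widely. Sox2 stood at 2.77 to 7.84 CPM per kilobase, Pax6 at 3.58 to 6.66, Nes at 1.68 to 4.75 and Hes5 at 3.65 to 6.68. Vim stood at 19.8 to 60.1, Fabp7 at 31.9 to 104 and Lhx2, which neurons also express, at 137 to 209. Among markers of intermediate progenitors, Eomes stood at 32.9 to 88.1 CPM per kilobase and Neurog2 at 46.8 to 161. Genes of newborn neurons stood at 53.5 to 96.2 for Dcx, 547 to 729 for Tubb3 and 926 to 1206 for Neurod6. The libraries held RNA of newborn neurons, intermediate progenitors and radial glia, with Sox2, Pax6, Nes and Hes5 below Eomes and Neurog2 in every library, and the cells are called tdTomato-positive cells here.

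At E15 the tdTomato-positive cells had less RNA of mitosis genes, several intermediate progenitor genes and the Notch pathway genes Dll1, Dll3 and Dner. They had more RNA of Nfix and of the POU factors of upper-layer neurons. A gene was called when its Benjamini-Hochberg adjusted p from the edgeR quasi-likelihood test fell below 0.05. Of the 18253 genes, 229 (1.25%) were called, 90 (0.493%) higher and 139 (0.762%) lower at E15. The adjusted p of called genes spanned 0.0353 to 0.0497, so every call lay near the threshold. In all 229 the E15 libraries lay outside the range of the E13 libraries, which also held for 4618 of all tested genes above (25.3%) and 4944 below (27.1%). Because RNA was pooled over cells, fewer cells of a type and less RNA per cell cannot be told apart in any of these differences.

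**Figure D1:**
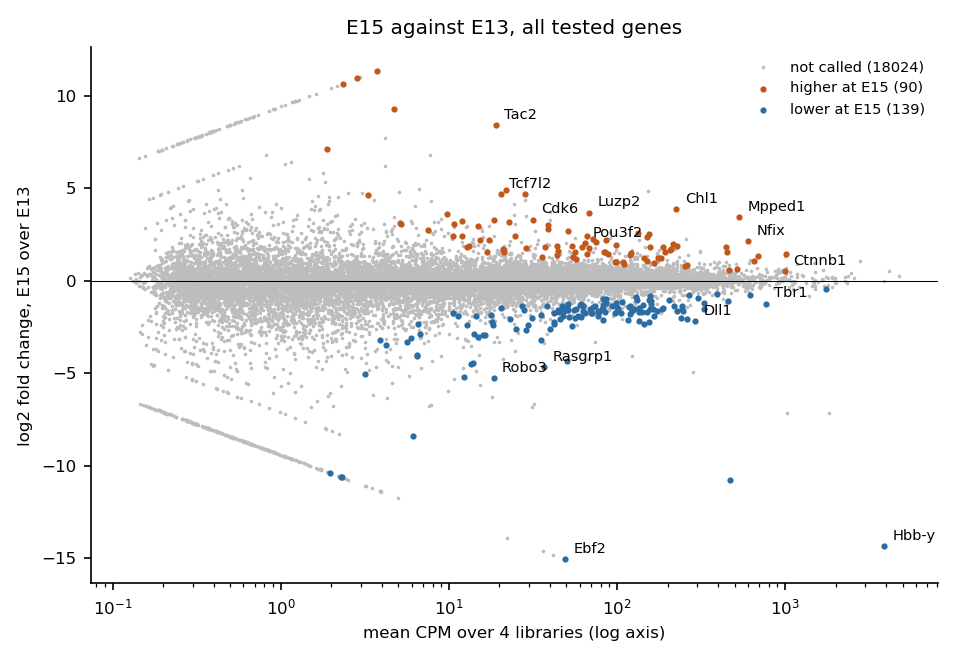
The log2 fold change of E15 over E13 (vertical axis) is plotted against the mean CPM over the 4 libraries (horizontal log axis) for 18253 tested genes, with 90 genes called higher in orange and 139 called lower in blue. Points on the slanted lines at the left are genes with no count at one age, whose fitted fold depends on the prior count.

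At this filter the edgeR calls depended on having 2 libraries at each age. With any single library left out, the same edgeR test called 0 genes, while 2731 to 3569 genes had an unadjusted p under 0.05 and all 229 kept their direction and an unadjusted p under 0.05. Without one library DESeq2 called 1102 to 1728 genes, and edgeR restricted to genes of at least 5 CPM called 349 to 881. With all 4 libraries, DESeq2 called 2299 genes (13.1% of 17545), 1057 higher (6.02%) and 1242 lower (7.08%), among them all 229. The 5 CPM filter called 1101 (9.36% of 11760), 461 higher (3.92%) and 640 lower (5.44%), among them 223 of the 229. Of the 38 mitosis genes described next, DESeq2 called 38 lower and the 5 CPM filter 37.

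Genes of mitosis, the machinery of spindle assembly, chromosome segregation and cytokinesis, were lower at E15 as a group. All 38 genes of the mitosis list lay below the E13 range in each E15 library, against 27.1% of all tested genes, and 25 of the 38 fell past the threshold, against 0.762% of all tested genes, with 0 called higher. The median log2 fold change of the list was -1.54, against -0.0042 over all tested genes. The summed level of the list was 6062 and 6662 CPM at E13 and 2268 and 2027 CPM at E15. The haemoglobin share of the counts, a sign of red cell RNA, was 0.691% and 2.38% at E13 and 0.00284% and 0.0113% at E15, and its part in the difference was not tested.

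Ube2c, the ubiquitin-conjugating enzyme of the anaphase-promoting complex, stood at 366, 401, 105 and 87.2 CPM. Both E15 libraries lay far below both E13 libraries, and Ube2c fell by 1.99 on the log2 scale (SE 0.13, edgeR adjusted p = 0.0353). Cdc20, the activator of the same complex, stood at 244, 283, 67.4 and 72.7 CPM and fell by 1.91 (SE 0.12, edgeR adjusted p = 0.0353). Cyclin B1, the partner of the mitotic kinase, is encoded by Ccnb1, which stood at 360, 390, 132 and 111 CPM. It fell by 1.62 (SE 0.12, edgeR adjusted p = 0.0393), and its processed pseudogene Ccnb1-ps was called too at 88.9, 102, 32.3 and 28.0 CPM, so reads may be shared between these rows. Top2a, the topoisomerase that untangles sister chromatids, stood at 417, 569, 165 and 173 CPM. It fell by 1.55 (SE 0.17, edgeR adjusted p = 0.0494), with no overlap between the ages.

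The other mitosis genes moved by like amounts. Prc1, which bundles midzone microtubules, stood at 208, 223, 69.9 and 63.2 CPM and fell by 1.70 on the log2 scale, and Birc5, the survivin of the chromosomal passenger complex, fell by 1.76 from 108 CPM in both E13 libraries to 34.1 and 29.5. Tpx2, Ect2 and Nusap1, which act on the spindle and in cytokinesis, fell, with log2 fold changes of -1.65, -1.64 and -1.53, as did Ccna2 and Aurkb with -1.61 and -1.52. Cdc25b, a phosphatase that activates the mitotic kinase, is outside the list and was named after its values were seen, and it fell by 1.98 from 86.4 and 107 CPM to 24.5 CPM in each E15 library. Some well-known members did not pass the test in spite of separated libraries. Mki67, the proliferation antigen, stood at 148, 110, 47.9 and 49.7 CPM with a log2 fold change of -1.40 (SE 0.18, edgeR adjusted p = 0.0557). Plk1, Cdk1 and Kif11 had log2 fold changes of -1.46, -1.38 and -1.24 with edgeR adjusted p of 0.0699, 0.0561 and 0.0538.

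**Figure D2:**
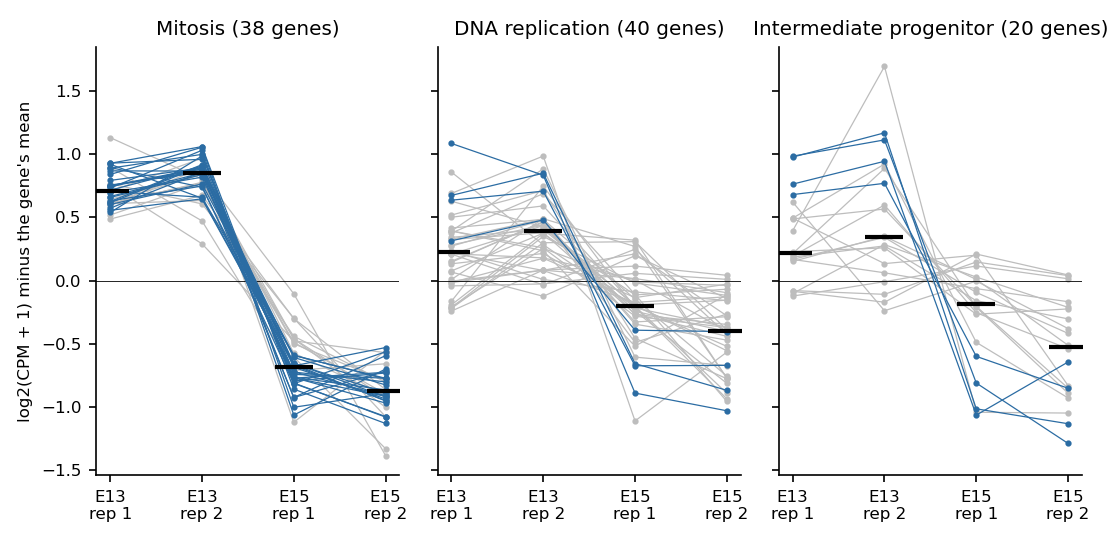
Each line is a gene, drawn as log2(CPM + 1) minus that gene's mean over the 4 libraries, for mitosis (38 genes), DNA replication (40) and intermediate progenitor (20) lists; blue lines were called lower, grey lines were not called, and black bars mark the list median in each library. Mitosis genes sit above their mean in both E13 libraries and below it in both E15 libraries, while the other lists spread more widely.

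Many mitosis genes carry a cell cycle homology region (core TTTGAA) and CCAAT boxes near their start, the elements through which the DREAM and B-MYB/NF-Y complexes act on them. Their promoters are shown because the list moved together. In the RefSeq promoters (GRCm38.p6, 250 bases before to 50 after the start, both strands searched, so a base can belong to both motifs), 32 of the 38 genes had an entry. TTTGAA was present in 25 of the 32 (78.12%), against 20.23% of all 27025 genes of the table and 14.37% of the 10850 tested genes in it. CCAAT was present in 25 (78.12%), against 41.06% and 43.38%, and both motifs in 21 (65.62%), against 7.974% and 6.055%. The E2F motifs GCGGGAA or GCGCCAA were present in 4 (12.5%), against 7.789% and 14.18%. These shares describe the letters of the promoters and were not tested. For 3 of the called genes, 110 bases upstream of the first annotated base are printed 5′ to 3′ on the gene's strand, with TTTGAA and CCAAT, or their reverse complements, in capitals. They were picked as genes with motifs in this stretch: of 18 called genes for which it could be read, 3 held TTTGAA and 10 held CCAAT in it.
Cdc20, chr4:118437353-118437462, minus strand: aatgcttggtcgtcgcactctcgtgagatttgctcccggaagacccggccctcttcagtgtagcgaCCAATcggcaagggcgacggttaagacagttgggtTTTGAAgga
Top2a, chr11:99024190-99024299, minus strand: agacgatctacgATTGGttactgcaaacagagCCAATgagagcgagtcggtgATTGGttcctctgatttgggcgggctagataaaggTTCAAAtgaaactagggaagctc
Ube2c, chr2:164769788-164769897, plus strand: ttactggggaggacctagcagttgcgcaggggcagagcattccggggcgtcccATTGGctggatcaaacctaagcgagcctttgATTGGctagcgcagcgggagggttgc
Cdc20 has 1 motif of each kind in this stretch, Top2a has 3 CCAAT boxes and 1 TTTGAA, and Ube2c has 2 CCAAT boxes and 0 TTTGAA. Between the stretch and the RefSeq start, 9 bases are left out for Cdc20, 31 for Ube2c and 0 for Top2a. Bases after the start are not printed either, so a motif missing here can still lie in the window searched above.

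DNA replication genes were lower by a smaller amount. Of the 40 genes of this list, 4 fell past the threshold (0.762% of all genes) and 0 were called higher (0.493%). Without overlap, 28 were lower (27.1% of all genes) and 1 higher (25.3%), with a median log2 fold change of -0.65. DESeq2 called 18 lower (7.08% in that fit) and 0 higher (6.02%). With the 5 CPM filter, 11 of 38 fell (5.44% in that fit) and 0 rose (3.92%). Rrm2 and Rrm1, the subunits of ribonucleotide reductase, stood at 341, 385, 135 and 117 CPM and at 321, 360, 196 and 195 CPM, and fell, with log2 fold changes of -1.53 (SE 0.12, edgeR adjusted p = 0.0393) and -0.80 (SE 0.09, edgeR adjusted p = 0.0497). Prim1, the catalytic primase subunit, fell by 1.38 from 54.1 and 56.9 CPM to 21.2 and 21.3. E2f2, an activator of replication genes, fell by 2.34 from 12 and 9.90 CPM to 2.31 and 2.0. E2f7, a repressive E2F outside the list and named after its values were seen, stood at 39.7, 59.8, 8.10 and 7.57 CPM and fell by 2.67. The helicase genes Mcm2 and Mcm5 stood at 144, 150, 95.5 and 84.4 CPM and at 90.7, 78.7, 49.3 and 32.8 CPM, and the polymerase clamp Pcna at 60.6, 55.0, 46.0 and 47.5 CPM. These 3 did not pass the test, with edgeR adjusted p of 0.0678, 0.113 and 0.265, though the 2 ages did not overlap in any of them. Mcm2 and Mcm5 were called lower by DESeq2 (DESeq2 adjusted p = 6.19e-06 and 0.000322) and with the 5 CPM filter (edgeR adjusted p = 0.0228 and 0.0457). Pcna was called in neither.

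Among the regulators of G1, 1 of 19 tested genes was called, against 1.25% of all tested genes. Cdk6, the kinase that pairs with D-type cyclins to start the cycle, stood at 4.75, 6.93, 61.4 and 53.4 CPM and rose by 3.30 on the log2 scale (SE 0.25, edgeR adjusted p = 0.0393), opposite in direction to the mitosis list. Its partner cyclins did not pass: Ccnd2 stood at 154, 211, 279 and 238 CPM (edgeR adjusted p = 0.249) and Ccnd1 at 1.37 to 2.58 CPM. The inhibitor genes Cdkn1a (p21) and Cdkn1c (p57) had lower values at E15 and lay above the threshold. Cdkn1a stood at 84.5, 169, 8.51 and 5.11 CPM with a log2 fold change of -4.22 (SE 0.49, edgeR adjusted p = 0.0514). Cdkn1c stood at 394, 382, 181 and 126 CPM with -1.34 (SE 0.20, edgeR adjusted p = 0.0674), while Cdkn1b (p27) stood at 39.4, 38.1, 53.2 and 69.8 CPM (edgeR adjusted p = 0.141).

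Several genes of intermediate progenitors and 3 of Notch signalling fell at E15. In the intermediate progenitor list of 20 genes, 4 fell (Gadd45g, Chd7, Nhlh1 and Dll3), against 0.762% of all tested genes, and 0 were called higher. Without overlap, 14 were lower (27.1% of all genes) and 3 higher (25.3%), with a median log2 fold change of -0.56. DESeq2 called 12 lower (7.08% in that fit) and 0 higher (6.02%). With the 5 CPM filter, 9 of 18 fell (5.44% in that fit) and 0 rose (3.92%). Gadd45g, a stress-response family member of neurogenic progenitors, stood at 403, 441, 116 and 82.8 CPM and fell by 2.09 (SE 0.19, edgeR adjusted p = 0.0421). Chd7, a chromatin remodeller, stood at 191, 203, 78.1 and 65.5 CPM and fell by 1.46, and Nhlh1, a basic helix-loop-helix factor of early neurons, fell by 1.72 from 102 and 116 CPM to 28.2 and 38. The defining markers moved less. Eomes (Tbr2) stood at 347, 366, 214 and 137 CPM with a log2 fold change of -1.02 (SE 0.23, edgeR adjusted p = 0.117), and Neurog2 at 225, 359, 167 and 104 CPM with -1.11 (SE 0.34, edgeR adjusted p = 0.182). Both were called lower by DESeq2 (DESeq2 adjusted p = 1.11e-05 and 0.000524). With the 5 CPM filter Eomes was called lower (edgeR adjusted p = 0.0445) and Neurog2 was not (edgeR adjusted p = 0.0868). Insm1, which drives progenitors away from the ventricle, stood at 330, 323, 386 and 358 CPM (edgeR adjusted p = 0.275).

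Of 25 tested genes of the Notch pathway, 3 fell, against 0.762% of all tested genes, and 0 were called higher. Without overlap, 11 were lower (27.1% of all genes) and 2 higher (25.3%), with a median log2 fold change of -0.32. All 3 that fell were ligands or ligand-like proteins. Dll1, the main Delta ligand of neurogenic cells, stood at 516, 439, 123 and 88.9 CPM and fell by 2.17 (SE 0.20, edgeR adjusted p = 0.0421). Dll3, a divergent Delta protein, stood at 206, 236, 51.3 and 47.2 CPM and fell by 2.17 (SE 0.12, edgeR adjusted p = 0.0353). Dner, a neuronal Delta-like transmembrane protein, stood at 204, 175, 37.6 and 48.9 CPM and fell by 2.13 (SE 0.18, edgeR adjusted p = 0.0393). In each gene both E15 libraries lay below both E13 libraries. The target genes of the pathway were not called: Hes5 stood at 6.58, 9.10, 7.55 and 4.98 CPM with overlapping ages, Hes1 at 4.12, 4.68, 1.95 and 0.870 CPM, and Hey1 at 115, 128, 83.1 and 64.8 CPM, with edgeR adjusted p of 0.692, 0.190 and 0.110. Hes1 and Hey1 were lower at E15 without overlap. Hey1 was called lower by DESeq2 (DESeq2 adjusted p = 0.00108) and with the 5 CPM filter (edgeR adjusted p = 0.0485). Akna, a centrosomal protein of delaminating progenitors outside these lists and named after its values were seen, stood at 238, 249, 56.2 and 39.0 CPM and fell by 2.36 (SE 0.21, edgeR adjusted p = 0.0400).

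Radial glia genes did not move as a group. Of 29 tested, 2 rose (0.493% of all genes) and 2 fell (0.762%). Without overlap, 9 were higher (25.3% of all genes) and 13 lower (27.1%), with a median log2 fold change of -0.32. Fabp7, the brain lipid-binding protein of radial glia, stood at 39.9, 47.3, 130 and 123 CPM and rose by 1.53 (SE 0.13, edgeR adjusted p = 0.0393). Ptprz1, a receptor phosphatase of radial glia and glial precursors, stood at 12.3, 13.7, 45.3 and 43.4 CPM and rose by 1.77 (SE 0.15, edgeR adjusted p = 0.0393). Against these, the intermediate filament gene Vim stood at 268, 285, 94.8 and 93.7 CPM and fell by 1.55 (SE 0.08, edgeR adjusted p = 0.0353), and Dll1 was the fourth called member. Sox2 stood at 8.14, 16.1, 10.5 and 5.70 CPM with overlapping ages (edgeR adjusted p = 0.604). Slc1a3, the glutamate transporter GLAST, stood at 1.47, 7.56, 12.5 and 26.2 CPM with wide spread between replicates (edgeR adjusted p = 0.294). Pax6 stood at 44.2, 41.9, 77.9 and 51.5 CPM (edgeR adjusted p = 0.271).

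Of 25 tested genes of the list on gliogenic competence, 2 rose (Nfix and Luzp2), against 0.493% of all tested genes, 0 fell, 12 were higher (25.3% of all genes) and 7 lower (27.1%) without overlap, and the median log2 fold change was 0.24. Nfix encodes a nuclear factor I protein that limits progenitor self-renewal, and lies at chr8:84699876-84800344 on the minus strand (GRCm38). It stood at 227, 219, 946 and 1026 CPM and rose by 2.14 (SE 0.08, edgeR adjusted p = 0.0353), a 4.42-fold difference with nearly equal replicates. Its paralogs were not called: Nfia stood at 398, 320, 327 and 324 CPM and Nfib at 2477, 1767, 2640 and 2966 CPM, with edgeR adjusted p of 0.639 and 0.326. Zbtb20, a zinc finger factor of late progenitors and astrocytes, stood at 55.8, 40.8, 185 and 260 CPM with a log2 fold change of 2.20 (SE 0.25, edgeR adjusted p = 0.0506), just above the threshold. Luzp2, a leucine zipper protein, stood at 11.1, 8.71, 120 and 133 CPM and rose by 3.68. Mature astrocyte genes were at or near 0: Gfap had 0 counts in 3 libraries and 0.0241 CPM in E13 replicate 1, and Aqp4 stood at 1.49 and 2.12 CPM at E13 and had 0 counts at E15. Egfr had 0 counts in all 4 libraries, which allows up to 0.0637 to 0.0739 CPM by counting error.

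**Figure D3:**
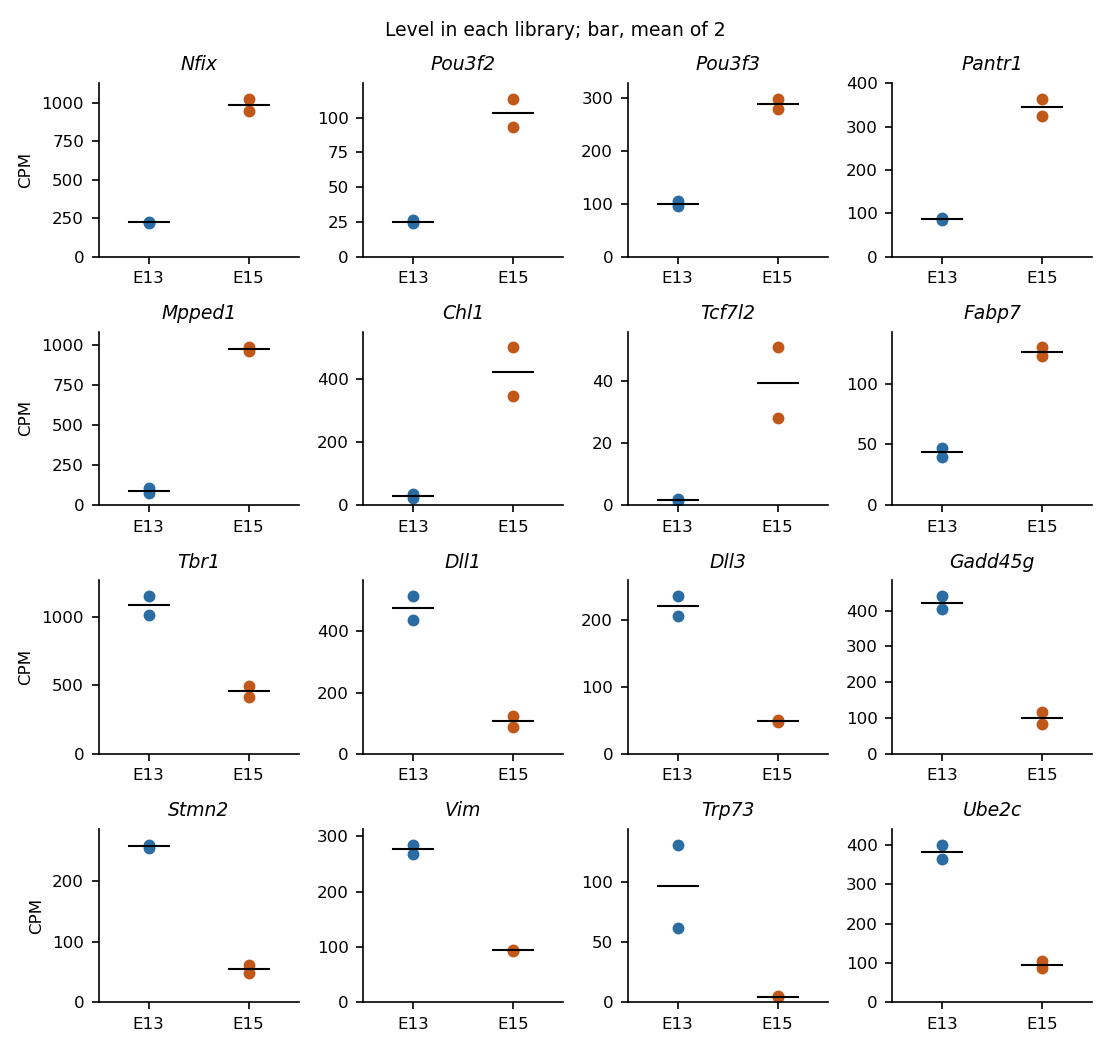
CPM in each library (points; E13 blue, E15 orange) and the mean of 2 libraries (bar) for 16 called genes, on axes that start at 0. The upper 8 genes were higher at E15 and the lower 8 were lower, and in none of them do the ages overlap.

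Upper-layer genes were mostly higher at E15. Of 20 genes, 3 rose (0.493% of all genes) and 0 fell (0.762%). Without overlap, 14 were higher, against 25.3% of all genes, and 1 lower (27.1%), with a median log2 fold change of 0.98. The called genes were Pou3f2, Pou3f3 and Ptprk. Pou3f2 (Brn2) stood at 24.1, 26.1, 114 and 93.2 CPM and rose by 2.04 (SE 0.15, edgeR adjusted p = 0.0393). Pou3f3 (Brn1) stood at 105, 94.9, 278 and 298 CPM and rose by 1.52 (SE 0.10, edgeR adjusted p = 0.0353). Both encode POU-domain factors required for upper-layer neurons and their migration. Pantr1, a long non-coding RNA named after its values were seen, lies next to Pou3f3 on the other strand (chr1:42590782-42694842 against chr1:42695768-42703176, GRCm38). It stood at 88.1, 83.6, 364 and 324 CPM and rose by 2.0 (SE 0.10, edgeR adjusted p = 0.0353). Ptprk, a receptor tyrosine phosphatase, stood at 50.6, 42.4, 256 and 268 CPM and rose by 2.50 (SE 0.12, edgeR adjusted p = 0.0353).

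Further upper-layer members lay above the threshold. Cux2 stood at 29.3, 23.1, 52.4 and 47.2 CPM, Pou3f1 at 26.0, 23.3, 59.8 and 54.4 CPM, and the netrin receptor gene Unc5d at 120, 57.9, 391 and 466 CPM, with edgeR adjusted p of 0.0898, 0.0506 and 0.0786. In these 3 both E15 libraries were above both E13 libraries. With genes of at least 5 CPM alone, 10 of 18 members rose, against 3.92% of all genes in that fit, and 0 fell.

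Of 19 tested genes of deep-layer and subplate neurons, 1 fell (0.762% of all genes) and 1 rose (0.493%). Without overlap, 9 were lower (27.1% of all genes) and 4 higher (25.3%), and the median log2 fold change was -0.36. Tbr1, the factor of layer 6 and subplate neurons, stood at 1151, 1014, 496 and 417 CPM and fell by 1.25 (SE 0.12, edgeR adjusted p = 0.0433). Lmo3, a LIM-domain cofactor, stood at 4.55, 4.66, 43.2 and 39.2 CPM and rose by 3.16 (SE 0.16, edgeR adjusted p = 0.0353). Bcl11b (Ctip2), the layer 5 determinant, stood at 618, 516, 295 and 271 CPM with a log2 fold change of -1.0 (SE 0.12, edgeR adjusted p = 0.0523). Fezf2, which acts upstream of it, stood at 231, 227, 186 and 171 CPM (edgeR adjusted p = 0.119).

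General genes of newborn neurons split between higher and lower values, and the list median was 0.13 on the log2 scale. Of 34 tested, 3 fell (0.762% of all genes) and 0 were called higher (0.493%). The ages did not overlap in 14 that were higher (25.3% of all genes) and 11 that were lower (27.1%). The unadjusted p was under 0.05 for 7 higher and 9 lower genes (1730 and 1958 among all 18253). DESeq2 called 7 higher (6.02% in that fit) and 9 lower (7.08%). With the 5 CPM filter, 3 of 33 rose (3.92% in that fit) and 8 fell (5.44%). Neurod6, Dcx and Tubb3 stood at 2314, 1991, 2552 and 2592 CPM, at 866, 676, 1074 and 1217 CPM, and at 1321, 1361, 1021 and 1115 CPM, and had edgeR adjusted p of 0.212, 0.136 and 0.100. The 3 genes that fell encode cytoskeletal proteins. Stmn2, a tubulin-binding protein of growing axons, stood at 254, 260, 47.7 and 61.9 CPM and fell by 2.23 (SE 0.16, edgeR adjusted p = 0.0353). The neurofilament genes Nefm (17.6, 18.2, 4.97 and 4.70 CPM) and Nefl (8.00, 7.49, 0.865 and 0.522 CPM) fell, with log2 fold changes of -1.89 and -3.48, and their annotated spans overlap on opposite strands of chromosome 14, so that some reads may be shared. Of 42 synaptic genes, 28 were higher (25.3% of all genes) and 9 lower (27.1%) without overlap, and the median log2 fold change was 0.52. Of the 42, 1 was called higher (0.493% of all genes) and 1 lower (0.762%). Rab3c, a vesicle GTPase, rose by 1.90. Slc17a7, the vesicular glutamate transporter VGLUT1, stood at 199, 208, 80.9 and 81.0 CPM and fell by 1.33 (SE 0.08, edgeR adjusted p = 0.0353). Gria2, an AMPA receptor subunit gene, stood at 146, 125, 291 and 374 CPM with edgeR adjusted p = 0.0558.

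**Figure D4:**
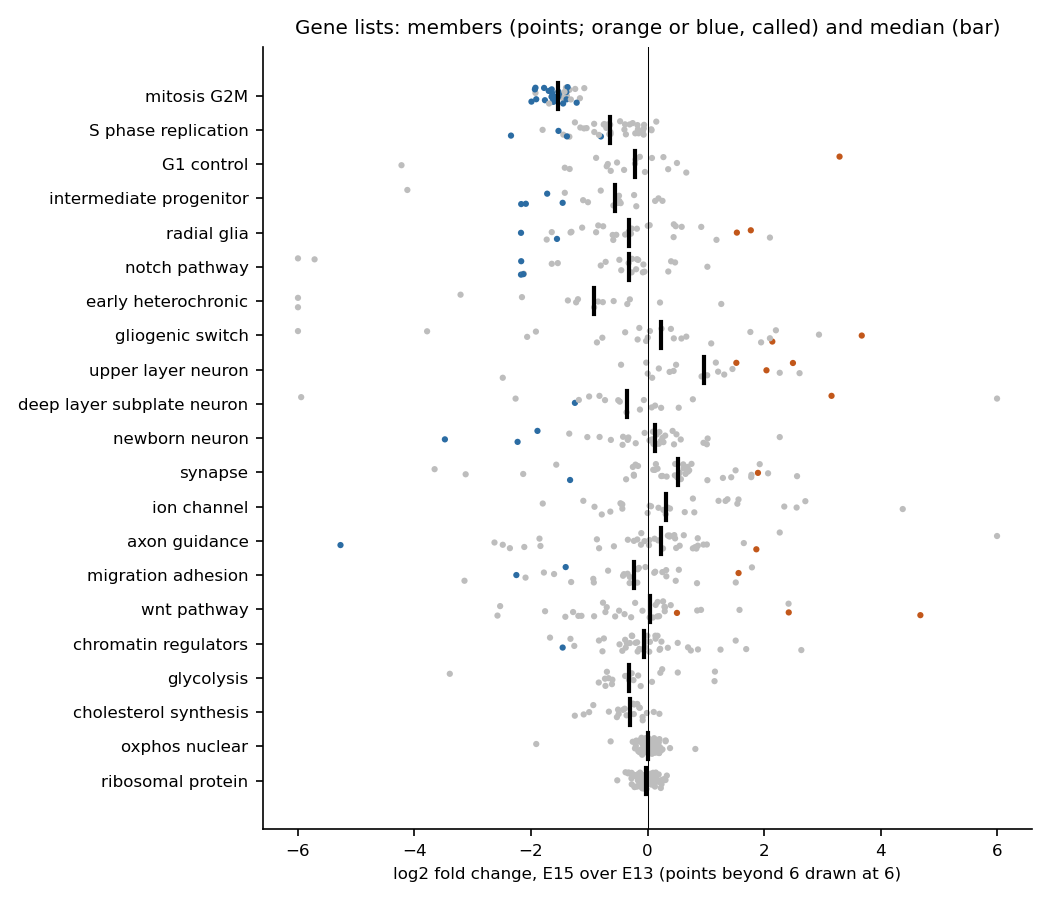
Log2 fold change of E15 over E13 for the members of 21 gene lists (points, orange called higher and blue called lower, grey not called) with the list median as a black bar; members beyond 6 in either direction are drawn at 6. The mitosis list has a median of -1.54 and the upper-layer list one of 0.98, while the ribosomal protein and oxidative phosphorylation lists have medians of -0.02 and 0.02.

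Genes of guidance, adhesion and migration moved in both directions. Sema3a, a secreted repellent, stood at 17, 21, 73.7 and 65 CPM and rose by 1.87, and Lrp8 (ApoER2), a reelin receptor, stood at 225, 233, 624 and 727 CPM and rose by 1.56 (SE 0.10, edgeR adjusted p = 0.0353). The cadherin gene Cdh11 fell by 1.40 from 76.4 and 69.3 CPM to 26.8 and 28.2. Ackr3, which scavenges the chemokine CXCL12, fell by 2.25 from 76.9 and 63.5 CPM to 16.9 and 12.6. Cntnap2, a neurexin-family adhesion gene named after its values were seen, stood at 131, 139, 29.7 and 31.7 CPM and fell by 2.14.

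Among 35 tested Wnt pathway genes, 3 rose (0.493% of all genes) and 0 fell (0.762%), with a median of 0.04 whose sign changed with the settings. DESeq2 called 6 higher (6.02% of all genes in that fit) and 7 lower (7.08%). The 5 CPM filter called 5 higher (3.92%) and 3 lower (5.44%). Ctnnb1, which encodes beta-catenin, stood at 824, 819, 1156 and 1176 CPM and rose by 0.51 (SE 0.05, edgeR adjusted p = 0.0479), one of the smallest changes called. The transcription factor gene Tcf7l2 stood at 1.20, 1.85, 28.0 and 50.7 CPM and rose by 4.68 (SE 0.45, edgeR adjusted p = 0.0433). The receptor gene Fzd9 rose by 2.42 from 2.89 and 3.73 CPM to 19.4 and 16.2. Tcf7l1, of the same family as Tcf7l2, stood at 11.1, 13.5, 1.30 and 2.96 CPM with edgeR adjusted p = 0.0887. It was called lower by DESeq2 (DESeq2 adjusted p = 0.000175) and with the 5 CPM filter (edgeR adjusted p = 0.0314).

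By size, the rises were led by genes that were nearly silent at E13. Tac2, the precursor of neurokinin B, stood at 0.217, 0, 32.3 and 43.7 CPM and rose (edgeR adjusted p = 0.0463). Adra2c, an alpha-2 adrenergic receptor, stood at 1.16, 1.68, 32.4 and 52.5 CPM and rose by 4.90, and the claudin gene Cldn3 stood at 2.65, 1.63, 49.5 and 59.7 CPM and rose by 4.67. Chl1, a cell adhesion molecule of the L1 family, stood at 35.3, 22.1, 345 and 499 CPM and rose by 3.88 (SE 0.33, edgeR adjusted p = 0.0394). Mpped1, a metallophosphoesterase, stood at 104, 73.2, 959 and 984 CPM and rose by 3.45 (SE 0.20, edgeR adjusted p = 0.0353). Myo1a and Inhbb, the latter an activin subunit gene, rose by 3.61 and 3.29. Several more, named after their values were seen, had nearly equal replicates: Trnp1, a nuclear protein of cortical progenitors, stood at 2.36, 2.17, 21.3 and 21.7 CPM, the kinase gene Nek6 at 52.1, 47.8, 252 and 255 CPM, and the microRNA host transcript Mir99ahg at 41.5, 39.3, 155 and 157 CPM. They rose by 3.25, 2.34 and 1.95.

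Large falls included genes that were almost lost at E15. Ebf2, a helix-loop-helix factor of early-born neurons including Cajal-Retzius cells, stood at 62.8 and 135 CPM at E13 and had 0 counts in both E15 libraries, at least 1470-fold lower against a floor of 3 counts per library. Rhpn2 had 562 and 451 counts at E13 and 0 and 3 at E15, a count ratio of 366 with a 95% counting interval of 125 to 1779. Robo3, a receptor of commissural axons, stood at 22.6, 49.3, 0.697 and 1.15 CPM and fell by 5.27 (SE 0.57, edgeR adjusted p = 0.0481) (-4.60 without E13 replicate 2). Rasgrp1, a Ras exchange factor, stood at 58.9, 82.9, 3.32 and 2.28 CPM and fell by 4.66, and the amino acid transporter gene Slc43a1 stood at 26.0, 26.2, 1.20 and 1.09 CPM and fell by 4.51. Ror2, a Wnt5a receptor, stood at 24.3, 28.7, 1.61 and 0.848 CPM and fell by 4.43. Chst8 stood at 26.4, 21.6, 0.36 and 0.914 CPM and fell by 5.22 (SE 0.51, edgeR adjusted p = 0.0433), or by 6.05 without E15 replicate 2. Adamts20 (16, 8.34, 0.721 and 0.74 CPM) and Sstr1 (12.1, 12.4, 0.505 and 1.0 CPM) fell too, with log2 fold changes of -4.05 and -4.02, and Sstr1 had -4.61 without E15 replicate 2 among genes of at least 5 CPM.

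Ebf2 belongs with a list of Cajal-Retzius cell genes, of which all 11 tested were lower without overlap, against 27.1% of all genes (median log2 fold change -3.36). Of the 11, 2 fell past the threshold (0.762% of all genes), Ebf2 and Trp73. Trp73 stood at 61.9, 131, 5.24 and 4.33 CPM and fell by 4.34 (SE 0.46, edgeR adjusted p = 0.0477). In this list E13 replicate 2 was above replicate 1 for Ebf2, Trp73, Lhx1 (14.7 and 41.6 CPM, then 0.433 and 1.46) and Ebf3 (6.60 and 19.4, then 1.97 and 0.566). The list median ran from -4.27 without E15 replicate 1 to -2.74 without E13 replicate 2, and was -0.92 without the latter among genes of at least 5 CPM. Trp73 fell by 3.69 without E13 replicate 2. Reln, the secreted product of these cells, stood at 79.2, 104, 49.5 and 24.5 CPM with a log2 fold change of -1.31 (SE 0.39, edgeR adjusted p = 0.174).

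Markers of other cell types were set beside these results. The summed red cell markers stood at 6878, 23743, 28.6 and 116 CPM. All 10 tested members were lower without overlap (27.1% of all genes). Of the 10, edgeR called 2 lower (0.762% of all genes), the embryonic globin genes Hbb-y (3429, 12055, 0.577 and 0.174 CPM) and Hba-x. DESeq2 called 10 lower (7.08% in that fit) and the 5 CPM filter 9 (5.44% in that fit). When haemoglobin genes were left out of the totals together with mitochondrial, ribosomal protein and sex-linked genes, 237 genes were called, 227 of them shared. Meningeal markers summed to 6.72, 70.2, 0.913 and 2.20 CPM, with Lum and Dcn detected only in E13 replicate 2 (6.54 and 5.59 CPM). Motile cilia genes summed to 63.6, 140, 16.8 and 22.9 CPM, choroid plexus genes to 21.1, 60.0, 21.2 and 28.1, mural genes to 2.39, 9.12, 3.24 and 1.17, and microglial genes to 0.217, 3.90, 0.336 and 0.696. Endothelial genes summed to 15.3 to 23.3 CPM. C1qa of microglia and Rgs5 of pericytes had 0 counts throughout, and the interneuron genes Dlx2 and Gad2 and the oligodendrocyte precursor genes Sox10 and Pdgfra stayed below 1 CPM. E13 replicate 2 thus held the most red cell, meningeal, ciliary, choroid, mural and microglial RNA, and the part of these cells in the other differences was not tested. Xist (14.3 to 41.7 CPM) and the Y-linked Ddx3y (36.1 to 68.9 CPM) were present in all 4 libraries, so each held RNA of both sexes, but not in equal parts. Xist was lower at E15 (41.7, 33.3, 28.8 and 14.3 CPM) and the 4 Y-linked genes measured were higher, each without overlap, as in Eif2s3y (47.7, 36.6, 90.2 and 95 CPM). edgeR called 0 of these 5 (4 at an unadjusted p under 0.05) and DESeq2 2, and the part of sex in the other differences was not tested.

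**Figure D5:**
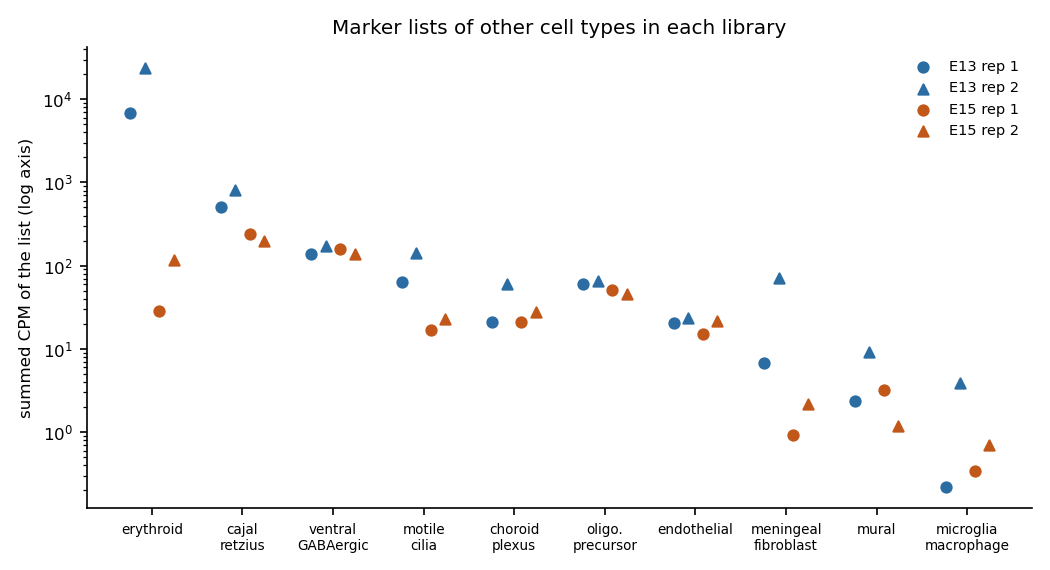
Summed CPM of marker lists of other cell types in each library, on a log axis (E13 blue, E15 orange; circles replicate 1, triangles replicate 2). Red cell markers differ most between ages, from 6878 and 23743 CPM at E13 to 28.6 and 116 CPM at E15, and E13 replicate 2 is the highest library in each of the 10 lists.

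Of 15 tested genes of early progenitor timing, edgeR called 0, and the median log2 fold change was -0.92. At an unadjusted p under 0.05, 0 were higher and 8 lower, against 1730 and 1958 of all 18253 genes. DESeq2 called 0 higher (6.02% of all genes in that fit) and 7 lower (7.08%). Without overlap, 10 were lower (27.1% of all genes) and 2 higher (25.3%). Lin28b, the inhibitor of let-7 microRNA processing, stood at 5.11 and 14.7 CPM at E13 and had 0 counts in both E15 libraries, at least 147-fold lower (edgeR adjusted p = 0.0678). The RNA-binding protein genes Igf2bp1, Igf2bp2 and Igf2bp3 stood at 114, 139, 63.2 and 45.2 CPM, at 169, 150, 73.2 and 50.7 CPM and at 73.0, 82.0, 47.4 and 43.7 CPM. Both E15 libraries lay below both E13 libraries in each of the 3, and edgeR adjusted p were 0.0819, 0.0702 and 0.0739. Hmga2, a chromatin architectural protein of young progenitors, was at 1.12 CPM or below in every library.

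The median log2 fold change was -0.02 over 83 ribosomal protein genes, 0.02 over 79 nuclear genes of oxidative phosphorylation and 0.04 over 13 mitochondrially encoded genes. edgeR called 0 in each of these lists, with 2, 6 and 1 genes at an unadjusted p under 0.05, and DESeq2 called 1, 2 and 0. Over all tested genes, 3688 of 18253 had an unadjusted p under 0.05 and DESeq2 called 13.1%. Glycolysis genes (22) and cholesterol synthesis genes (22) had medians of -0.32 and -0.31. edgeR called 0 of either, with 14 and 7 at an unadjusted p under 0.05, DESeq2 called 10 and 6, and 14 and 17 of them were lower without overlap against 27.1% of all genes.

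Genes called higher had longer loci than the tested genes as a whole, and those called lower differed less. The median genomic span was 65.6 kb for genes called higher, 23.5 kb for genes called lower and 14.5 kb for all tested genes (20.8 kb for those of at least 5 CPM). Spans over 100 kb were found for 37.1% of genes called higher, 16.9% of those called lower and 11.2% of all tested (12.6% of those of at least 5 CPM). Protein-coding genes made up 82 of 89 annotated genes called higher and 132 of 136 called lower, and long non-coding RNAs 5 and 0. Of 17876 annotated genes among all tested, 12939 were protein-coding and 1885 long non-coding. Of 11588 annotated genes of at least 5 CPM, these were 10050 and 269.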

How the data were processed

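RNA of tdTomato-positive mouse brain cells was sequenced in 8 libraries, of which the 2 E13 and 2 E15 libraries were compared. Per the labels' protocols, total RNA (400 pg per library) was made into libraries with the NEBNext Ultra II kit. The authors deposited raw counts per gene. GRCm38, STAR, Subread and cutadapt are named in the submitters' processing notes. Versions, annotation, strand setting and multi-mapping rules are not given in the sources used here, so reads of a gene and its antisense or near-identical partner cannot be told apart. Of 78 named called genes, 32 overlap an annotated gene on the opposite strand. Rows that named no gene (1980 of 55487, 0.205% to 0.225% of counts) were left out, and 0 rows held the reporter.

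Counts were tested with edgeR 4.0.16 (R 4.3.3): TMM scaling, filterByExpr (minimum count 10, total 15), quasi-likelihood F test, two-sided, Benjamini-Hochberg adjusted over 18253 genes, called below 0.05. The SE comes from the F statistic. A count of 0 allows 3 counts, 0.0637 to 0.0739 CPM before scaling; floors and intervals cover counting error only. Coordinates are GENCODE M21 on GRCm38 (96.6% of 53507 gene rows matched). The code was tested on simulated data. Gene lists (42), members and tests were chosen with earlier results of these data known. Named genes are the 10 of largest fold per direction among called genes of at least 10 CPM without overlap, called list members of smallest p (4 or 8 per list) and a set taken whatever its values; the rest were named after their values were seen, namely those so marked and Ccnb1-ps, Ccna2, Aurkb, Plk1, Cdk1, Kif11, Mcm2, Mcm5, Pcna, Cdkn1a, Cdkn1b, Insm1, Hey1, Lhx2, Unc5d, Pou3f1, Gria2, Tcf7l1, Lhx1, Ebf3, Igf2bp2, Igf2bp3, Gfap, Aqp4, Xist, Ddx3y, Eif2s3y, Lum, Dcn, C1qa, Rgs5, Pdgfra and Sox10. Not all so chosen are described, and withheld items are not reported here. Alternatives were DESeq2 1.42.0, limma-voom (limma 3.58.1), other scalings, filters, fits and left-out libraries. Replicates differed by more than counting noise (chi-square per degree of freedom 61.6 at E13 and 33.9 at E15).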

Additional observations from a re-analysis of the deposited data

How the results depend on the processing

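Beside the 229 calls (90 higher, 139 lower), relative log expression scaling, upper-quartile scaling, no low-count filter and removal of mitochondrial, ribosomal protein, haemoglobin and sex-linked genes gave 223, 239, 179 and 237 calls. DESeq2 called 2299 (1057 higher, 1242 lower), limma-voom with sample weights 450 (193 and 257) and edgeR on genes of at least 5 CPM 1101 (461 and 640), sharing 229, 212 and 223 with the 229. Testing for changes beyond a log2 size of 1 called 0 (1185 at an unadjusted p under 0.05), and the fit of all 8 libraries 0 in either direction (690 at an unadjusted p under 0.05), with a common biological coefficient of variation of 0.984 against 0.414 for the 4 libraries. With any of the 4 libraries left out, edgeR called 0 genes in either direction, with smallest adjusted p of 0.085 to 0.192. Chosen after seeing the data, the same omissions with genes of at least 5 CPM gave 881 calls (473 higher, 408 lower) without E13 replicate 1, 407 (206, 201) without E13 replicate 2, 526 (174, 352) without E15 replicate 1 and 349 (88, 261) without E15 replicate 2, of which 185 to 199 were shared with the 229. DESeq2 gave 1728 (935, 793), 1102 (593, 509), 1360 (525, 835) and 1168 (387, 781) in the same order. A lone library is assumed there to vary like the other age. The replicate block, with 1 residual degree of freedom, called 3 genes (0 higher, 3 lower), 0 of them among the 229. Equal numbers name no shared source. Deviations of equal-numbered libraries correlated at -0.047, and whether these libraries shared a litter or a day is not given. Nfia, not called (log2 fold change -0.14), alone of the named genes changed sign: with 1 library left out it ran from -0.29 (E13 replicate 2) to 0.023 (E13 replicate 1), and without these it was -0.32 among genes of at least 5 CPM and 0.022 with DESeq2. The causes were not tested. With 2 libraries an age, small changes in variable genes could not be called.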

Other observations

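Other programmes had few genes called by edgeR. Over all tested genes, 3688 of 18253 had an unadjusted p under 0.05 and DESeq2 called 13.1%. Ion channel genes (29 tested) had 0 called by edgeR, 11 at an unadjusted p under 0.05 and 7 called by DESeq2, with a median log2 fold change of 0.31. Chromatin regulators (40 tested) had 1 called by edgeR, Chd7, which fell, and a median of -0.06. Of the 40, 15 had an unadjusted p under 0.05 and DESeq2 called 15. Genes of the m6A RNA methylation machinery (20 tested) had 0 called by edgeR, 6 at an unadjusted p under 0.05 and 3 called by DESeq2, with a median of 0.01 whose sign changed between settings. Targets of p53 (17 tested) had 0 called by edgeR, 6 at an unadjusted p under 0.05 and 5 called by DESeq2, and a median of -0.51. Among patterning genes (22 tested), Lhx9, a LIM homeobox gene, stood at 214, 273, 81.8 and 85 CPM and fell by 1.55 on the log2 scale (SE 0.15, edgeR adjusted p = 0.0433).

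A few further genes were named after their values were seen. Bcl2, which blocks apoptosis, stood at 24.1, 19, 4.59 and 3.68 CPM and fell by 2.38 (SE 0.24, edgeR adjusted p = 0.0463). Igfbp2, which binds insulin-like growth factors, stood at 423, 486, 213 and 188 CPM and fell by 1.18 (SE 0.12, edgeR adjusted p = 0.0433). The neuronal glutamate transporter gene Slc1a1 stood at 2.46, 2.05, 19.6 and 18.6 CPM and rose by 3.08 (SE 0.22, edgeR adjusted p = 0.0353). Frmd6, a FERM-domain protein of the Hippo pathway, stood at 7.76, 9.24, 65.1 and 74 CPM and rose by 3.03 (SE 0.17, edgeR adjusted p = 0.0353).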
